A study of Mus musculus with 21 samples.

Results

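Mouse chromosome 6 was examined in 21 liver tumours of mice with NASH by array comparative genomic hybridization, in which tumour DNA and a reference DNA compete for the same spots. All probes placed on chromosome 6 were taken, except 39 of a single stretch that is not reported here, which gave 5711 of the 96471 probes with a position in the 2 array designs. Of these, 3440 were on the design of slide 1, 3003 on the design of slides 2 and 3, and 732 on both. The chromosome was chosen by its measured log2 ratios in these same tumours, whose levels varied, so the levels and the pattern along the chromosome are described here without a test, and tests were limited to the difference between the treatment groups.

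All tumours came from male C57BL/6 mice in which NASH was induced by 12 months of CD-HFD, a diet rich in fat and lacking choline. 12 tumours of 7 mice were from animals that also received anti-PD1, an antibody against the T cell checkpoint receptor PD-1, for 8 weeks (anti-PD1). 9 tumours of 7 mice were from animals on the diet alone (CD-HFD), so both groups share the diet and neither is a healthy control. DNA was extracted from fixed, paraffin-embedded sections, labelled with Cy3 and hybridized against a Cy5-labelled pool that the labels name as liver tails, with 1 array a tumour and no dye swap. Tumours are named by the numbers in their labels. The leading number was read here as the mouse, which the labels do not state, and by this reading 5 mice gave several lesions. All counts, means and comparisons by mouse rest on it.

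Each value is a log2 ratio of tumour over reference, centred on the median of all probes of the array, so 0 is the middle of that tumour's own genome and not a copy number. A loss of 1 of 2 copies in every cell would give −1 and a gain of 1 copy 0.58. In such bulk DNA a change carried by some of the cells and a smaller change in all of them cannot be told apart. The noise of a single probe, from differences between neighbours, was 0.41 to 0.68, and between 67.1 and 100% of the chromosome 6 spots of an array were well above background in the tumour channel.

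Mouse chromosome 6 has its centromere at 1 end, so that it is read here from the centromere outwards. It carries the receptor kinase gene Met and the kinase gene Braf, which drive growth signals in many tumours, the tumour suppressor genes Cdkn1b and Vhl, fat and liver genes such as Lep and Pparg, and immune genes including Cd4, Cd8a and Lag3. Cancer cells often gain or lose whole chromosomes when these are shared unequally at cell division, and all genes of the chromosome then change in copy number together, whereas a deletion or amplification inside the chromosome changes some genes and spares their neighbours. Array ratios often carry a wave that follows the GC content of the genome, so the main values are given with and without a correction for GC, both within the probe and in its surrounding 50 kb.

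Probes beside the largest step of 3 tumours, those that differed most between the distal and proximal parts of the chromosome, and 1 probe each from a high and a low gene locus show what was measured. The largest step of all tumours, 0.72 in 2064 L2, is not among them. Capitals mark G and C, sequences are written 5′ to 3′ on the plus strand, each matched the GRCm38 genome at a single place, coordinates are those of the files (mm9), and the annotation is that of GENCODE at the matched place.
Adamts9 intron and exon of the antisense gene 9530026P05Rik, chr6:92890325-92890380: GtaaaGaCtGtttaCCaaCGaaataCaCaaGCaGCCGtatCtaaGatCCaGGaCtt
9530026P05Rik intron, chr6:92929037-92929096: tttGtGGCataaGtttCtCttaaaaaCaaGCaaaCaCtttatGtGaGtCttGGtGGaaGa
Gcc1 intron, chr6:28373333-28373392: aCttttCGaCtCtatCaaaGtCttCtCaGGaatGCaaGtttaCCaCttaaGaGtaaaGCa
Gcc1 intron, chr6:28377475-28377534: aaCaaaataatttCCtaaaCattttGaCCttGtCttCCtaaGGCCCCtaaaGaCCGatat
Grm8 intron, chr6:27973471-27973530: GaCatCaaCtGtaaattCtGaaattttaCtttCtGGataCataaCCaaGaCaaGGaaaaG
Klrk1 coding exon, chr6:129565383-129565440: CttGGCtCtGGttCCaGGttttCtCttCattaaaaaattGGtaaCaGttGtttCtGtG
Ing4 coding exon, also exon of the transcript Gm44597, chr6:124993953-124994010: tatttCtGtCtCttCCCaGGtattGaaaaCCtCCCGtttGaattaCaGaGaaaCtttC
The Klrk1 and Ing4 probes have the same GC content, 37.9%, but lie in neighbourhoods of 36.9 and 47.2% GC over 50 kb. The Klrk1 probe read from −0.35 to 0.72 over 13 arrays, with a median of −0.01, and the Ing4 probe from −0.69 to −0.03, with a median of −0.36.

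Most tumours held chromosome 6 near the middle of their genome, and 5 did not. The level, the mean over all chromosome 6 probes, was −0.27 in 2064 L1, −0.18 in 2116 L1, −0.15 in 612 L5 and −0.11 in 608 L6. It was 0.21 in 2088 L1. The other 16 tumours lay between 0.03 and 0.10. The gap between the lowest of these 16 and 608 L6 was wider than the whole range of the 16.

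Precision was not limited by the number of probes. Odd-numbered and even-numbered probes of a tumour gave levels that differed by at most 0.02, and the error expected from probe noise alone was 0.01. The spread between 10-Mb blocks of 1 chromosome was larger, with an SD over 15 blocks of 0.09 in 2064 L1, 0.07 in 2116 L1, 0.08 in 612 L5, 0.08 in 608 L6 and 0.09 in 2088 L1. Each tumour had 1 array, so the error of repeating the hybridization is unknown.

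GC correction kept the same 5 tumours apart. The corrected levels were −0.31 in 2064 L1, −0.21 in 2116 L1, −0.19 in 612 L5, −0.15 in 608 L6 and 0.17 in 2088 L1. The remaining 16 lay between −0.03 and 0.08, on both sides of 0. The SD between blocks fell to 0.06 in 2064 L1, to 0.05 in 612 L5, 608 L6 and 2088 L1, and to 0.04 in 2116 L1.

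**Figure D1:**
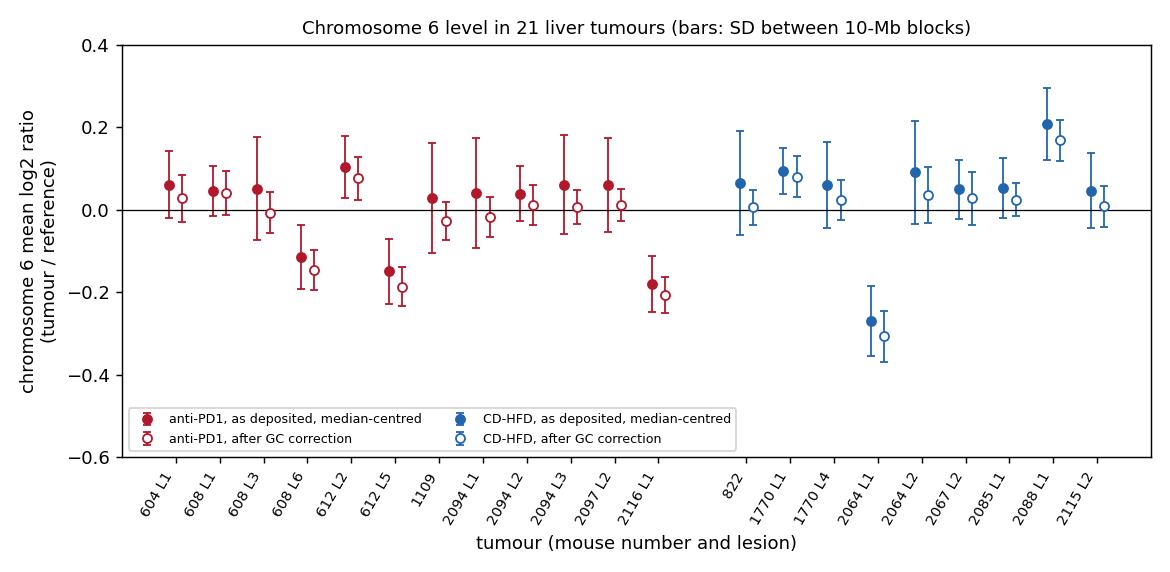
Mean log2 ratio of tumour over reference for chromosome 6 (y axis) in each of 21 tumours (x axis, by mouse and lesion), anti-PD1 in red and CD-HFD in blue, before (filled) and after (open) GC correction. Bars are the SD between 10-Mb blocks, and 2064 L1 (−0.27), 2116 L1 (−0.18), 612 L5 (−0.15) and 608 L6 (−0.11) lie below the rest, with 2088 L1 (0.21) above.

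The 4 low tumours were low along the entire chromosome. After GC correction all 15 blocks were below 0 in each of them, with block means from −0.44 to −0.21 in 2064 L1, from −0.28 to −0.12 in 2116 L1, from −0.25 to −0.12 in 612 L5 and from −0.26 to −0.09 in 608 L6. In 2088 L1 all 15 blocks were above 0, from 0.09 to 0.25. Without correction 15 of 15 blocks were below 0 in 2064 L1 and 2116 L1 and 14 of 15 in 612 L5 and 608 L6, and in both exceptions the block above 0 was the second from the centromere. In the other 16 tumours 2 to 11 of the 15 corrected blocks were below 0. Without correction 1 of them, 1770 L1, had 0 of 15 blocks below 0, with block means from 0.00 to 0.19.

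Windows of 1 Mb gave the same picture. Below 0 were 130 of the 134 corrected windows of 2064 L1, 127 of 134 in 2116 L1, 123 of 134 in 612 L5 and 134 of 146 in 608 L6. It was 14 of 134 in 2088 L1, and in the other 16 tumours 24.0 to 61.2% of the windows. The low tumours were less uniform without correction. Below 0 were then 122 of 134 windows in 2064 L1, 115 of 134 in 2116 L1, 103 of 134 in 612 L5 and 109 of 146 in 608 L6. Uncorrected, 2088 L1 had 10 of 134 below 0 and the other 16 tumours 20.5 to 38.1%. Neighbouring windows share the level of their tumour and were not counted as independent.

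**Figure D2:**
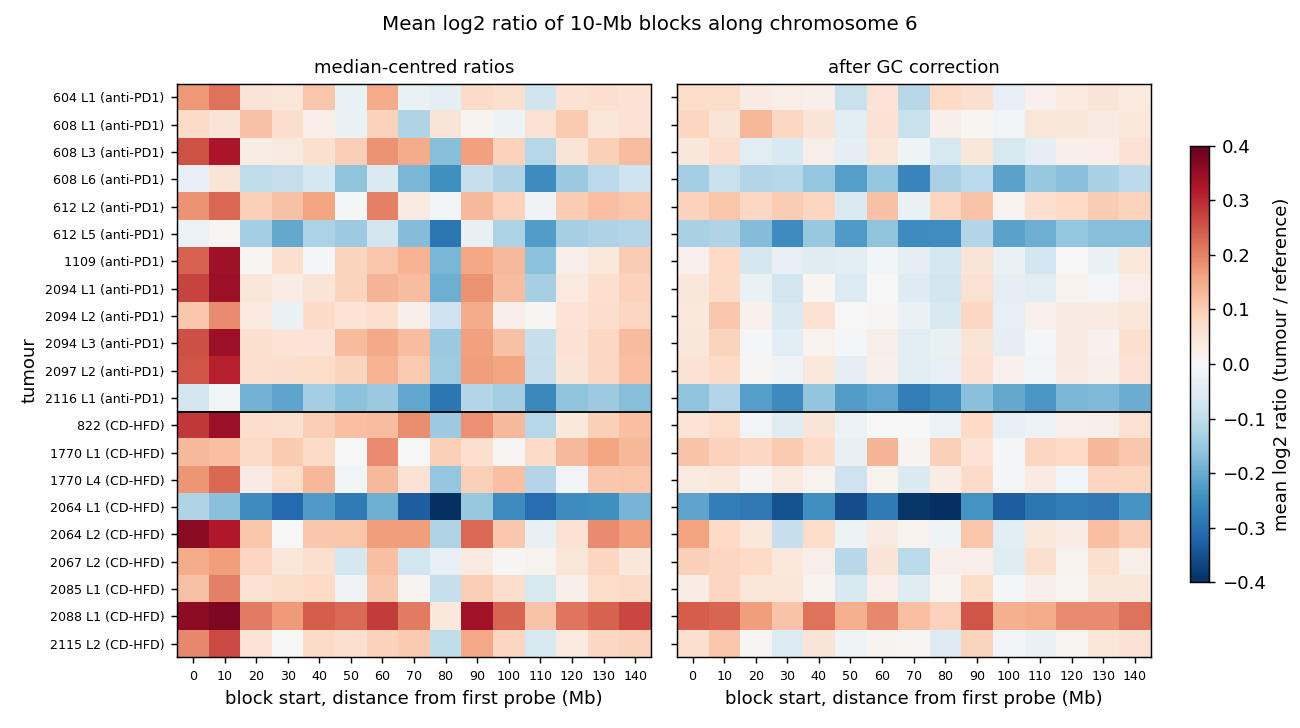
Mean log2 ratio (colour, blue below 0 and red above) of 15 blocks of 10 Mb along chromosome 6 (x axis, distance of the block start from the first probe) in each tumour (y axis), before (left) and after (right) GC correction. After correction 2064 L1, 2116 L1, 612 L5 and 608 L6 are blue over all 15 blocks and 2088 L1 is red over all 15.

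Lesions of 1 mouse did not share these levels. Mouse 2064 gave 2064 L1 at −0.27 and 2064 L2 at 0.09. Mouse 612 gave 612 L5 at −0.15 and 612 L2 at 0.10. In mouse 608 lesion 608 L6 was at −0.11, and 608 L1 and 608 L3 were both at 0.05. The lesions of mouse 2064 lay on 1 slide, whereas 612 L5 and 612 L2 lay on different slides, as did 608 L3 and the other lesions of its mouse. The 3 lesions of mouse 2094 spanned 0.02 and the 2 lesions of mouse 1770 spanned 0.03.

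The low level stood alone in 1 tumour and beside other changed autosomes in the others. In 2116 L1 chromosome 6 was the lowest of 19 autosomes, at −0.21 after GC correction, and the 18 others lay between −0.02 and 0.05. In 612 L5 it was 18th of 19 after correction, between chromosome 19 at −0.21 and chromosome 4 at −0.14, and the highest autosome was at 0.09. In 2064 L1 it was 17th, in a genome that ranged from −0.33 on chromosome 12 to 0.43 on chromosome 1. In 608 L6 it was 14th, and the corrected autosomes ranged from −0.36 to 0.41. In 2088 L1 it was the 4th highest, behind chromosome 1 at 0.40.

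The level of 608 L6 depended on the centring. The authors' table of loess-normalized ratios, which was not centred, placed this tumour at −0.01, and at −0.15 once each of its columns was centred on its own median, which was 0.15 for 608 L6. That table placed 2064 L1 at −0.44, 2116 L1 at −0.29, 612 L5 at −0.25 and 2088 L1 at 0.30, over 674 chromosome 6 probes. It also placed 2094 L1 at −0.12, where its own column median was −0.11. With another background correction (normexp) 2064 L1 was at −0.18, 2116 L1 at −0.17, 612 L5 at −0.13, 608 L6 at −0.096 and 2088 L1 at 0.12. The array of 2064 L1 had a probe noise of 0.63 and 80.1% of its chromosome 6 spots well above background.

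**Figure D3:**
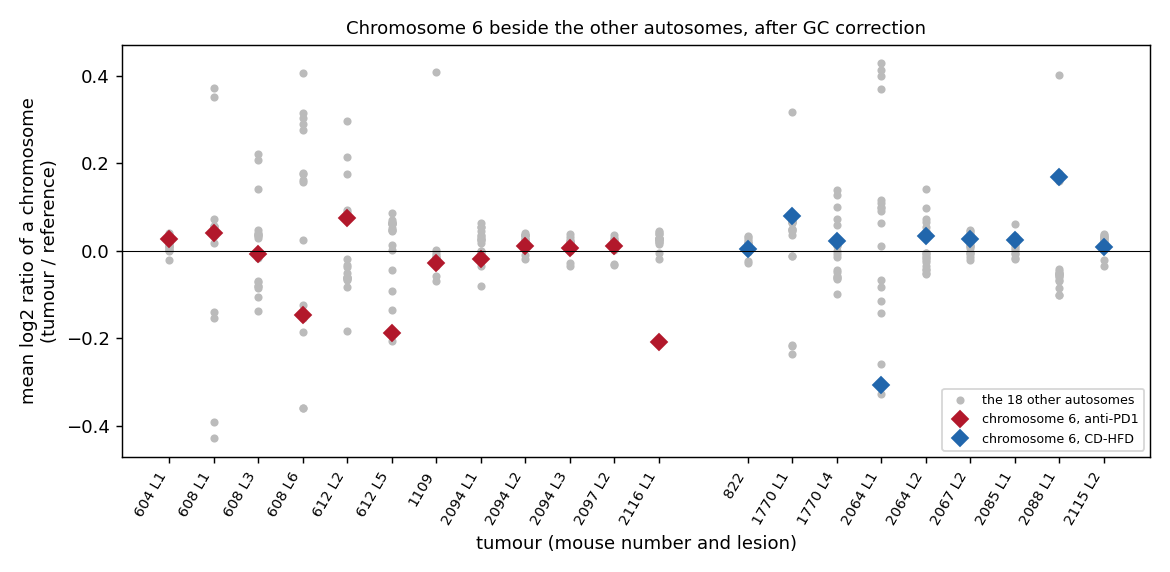
Mean log2 ratio of each autosome after GC correction (y axis) in each tumour (x axis), with chromosome 6 as a coloured diamond (red anti-PD1, blue CD-HFD) and the 18 other autosomes as grey points. In 2116 L1 chromosome 6 at −0.21 lies apart from all 18 others, and in 2064 L1, 612 L5 and 608 L6 other autosomes lie at or below its level.

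The question for the treatment groups was whether anti-PD1 tumours and CD-HFD tumours differed in chromosome 6. Levels in the 12 anti-PD1 tumours ran from −0.18 over a median of 0.04 to 0.10, and those in the 9 CD-HFD tumours from −0.27 over a median of 0.06 to 0.21, so the groups overlapped almost completely. 3 of the 4 low tumours (2116 L1, 612 L5 and 608 L6) were anti-PD1 tumours of 3 mice, and 2064 L1 and the high 2088 L1 were CD-HFD tumours. The mean of the 7 mice was −0.00 (SD 0.08) with anti-PD1 and 0.06 (SD 0.09) with CD-HFD.

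In limma, with the mouse as a random block, the anti-PD1 minus CD-HFD difference of the chromosome 6 level was −0.04 (SE 0.05, p = 0.396, adjusted p = 0.888 over 20 chromosomes). Of the 20 chromosomes, 0 passed an adjusted p of 0.05 (0% called) and the smallest unadjusted p was 0.191, on chromosome 8. The difference was −0.08 without mouse 2064 and −0.02 without mouse 2088, so each of these CD-HFD mice moved it by more than 1.5 times in opposite directions. Within slides the group means were 0.02 and 0.06 on slide 1, −0.00 and 0.02 on slide 2, and −0.01 for 4 anti-PD1 tumours against 0.06 for the only CD-HFD tumour on slide 3.

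No stretch of the chromosome was called either. Of 2221 windows of 1 Mb in the genome 0 were called by limma (0% called), and 134 of these windows were on chromosome 6. At an unadjusted p of 0.05 it was 1 of the 134, or 0.746%, against 19 of all 2221, or 0.855%. On probes common to both designs limma called 0 of 12699 (0% called), and at an unadjusted p of 0.05 there were 50 of 731 on chromosome 6 (6.84%) and 992 in the genome (7.81%). The median window difference was −0.04 on chromosome 6 and −0.00 over all windows.

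The chromosome 6 windows with the smallest p were chr6:143000001-144000000, around the ethanolamine kinase gene Etnk1, at −0.12 (p = 0.0490 in limma), chr6:47000001-48000000, with the ubiquitin ligase scaffold gene Cul1 and a cluster of zinc finger genes, at −0.11 (p = 0.0576 in limma), and chr6:114000001-115000000, with the autophagy gene Atg7, at −0.10 (p = 0.0693 in limma). All 3 had an adjusted p of 0.999.

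Distal and proximal parts of the chromosome were compared at the midpoint between the first and last probe. The distal part was below the proximal part in 21 of 21 tumours, by 0.01 to 0.14. After GC correction it was lower in 17 of 21, by at most 0.04. The group difference in the distal minus proximal value was −0.01 in limma (SE 0.01, p = 0.355, adjusted p = 0.757).

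A stepped profile recurred along the chromosome in 16 tumours, and no step was called after GC correction. Without correction the segmentation divided chromosome 6 into 1 to 9 segments a tumour, 81 in all, and 5 tumours had a single segment. After correction all 21 tumours had a single segment spanning the chromosome. The steps fell at the same places: 16 tumours stepped down between positions 26466377 and 28743119, of which 2097 L2, 1109, 822 and 1770 L4 stepped up again between 29708872 and 29745180, 8 stepped down between 81587184 and 81898184, 7 stepped up between 92025745 and 92929037, 8 stepped down between 112160911 and 112786499, and 9 stepped up between 127098305 and 127246808. The first step was found on both designs. Of the tumours on slide 1, only 1770 L4 had the steps from 81587184, 92025745 and 112160911 onwards, and none had the last, from 127098305. All other tumours with these later steps were on the other design. Whether the design or the tumours made this difference was not tested.

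The stretches between these steps differed in GC content and in ratio. The most proximal stretch, chr6:3024849-27718974, had a median GC content of 39.2% and a median ratio of 0.20, and lay above the tumour's own chromosome level in 21 of 21 tumours. The stretch chr6:81898184-92797053 had 46.6% GC and a median ratio of −0.15, below the own level in 21 of 21. The stretch chr6:112160911-127161538 had 45.9% GC and a median of −0.12, again below in 21 of 21. The other 3 stretches did not fall in order of GC content, with medians of 0.06 at 40.8%, 0.11 at 40.9% and, at the distal end, 0.12 at 42.7%. Over 134 windows the median ratio of the 21 tumours and the GC content had a Pearson r of −0.63 and a Spearman rho of −0.62, as a description of windows that share arrays and neighbours. The correction removed a part of this profile: the SD over windows of the median ratio was 0.15 before and 0.11 after it, so 74.0% of it was kept although no segment was divided. After correction the most proximal and the most distal stretch were still above the own level in 21 of 21 tumours, by 0.01 to 0.09 and by 0.02 to 0.09. These stretches were chosen after the steps had been seen.

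The windows with the highest medians were chr6:101000001-102000000, with the ubiquitin ligase gene Pdzrn3, at 0.36, chr6:14000001-15000000, with the glycogen phosphatase subunit gene Ppp1r3a, at 0.35, and chr6:68000001-69000000 at 0.34. After GC correction they were at 0.16, 0.10 and 0.09. Before correction the Pdzrn3 window was above 0 in only 13 of 21 tumours and ran from −0.37 to 0.84. The Ppp1r3a window was above 0 in 18 tumours and chr6:68000001-69000000 in 20. Tumours on different designs were read mostly from different probes, so these medians mix probe sets. Whether the design or the tumours made the spread was not tested. The windows with the lowest medians were chr6:125000001-126000000, with Gapdh, Tnfrsf1a and the chromatin remodeller gene Chd4, at −0.33, chr6:88000001-89000000, with the replication helicase gene Mcm2, at −0.30, and chr6:124000001-125000000, with Cd4 and Lag3, at −0.25. After correction these were at −0.12, −0.07 and −0.11. The window of Gapdh was above 0 in 0 of 21 tumours, 2064 L1 and 2088 L1 included.

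Arrays carried the profile to different degrees. GC content accounted for 3.43% of the variance of the autosomal probes in 608 L1, 4.14% in 1770 L1, 25.1% in 822 and 25.7% in 2094 L3. The first 2 were on slide 1 and had the weakest tumour signals, with 65.0 and 82.1% of spots well above background. The last 2 were on slides 3 and 2. However, it was 22.2% in 1770 L4 on slide 1 and 5.05% in 2116 L1 on slide 2. A cause was not tested. The tumours that differed most between distal and proximal parts were 2094 L1, 822 and 1109. The largest step of each lay between the Adamts9 and 9530026P05Rik probes shown above (0.41 upwards in 2094 L1), between the 2 Gcc1 probes (fell by 0.57 in 822) and just proximal to the Grm8 intron probe (fell by 0.60 in 1109). Single probes did not always show the step of their segments: the Gcc1 probes read 0.02 and −0.07 in 822, while the 9530026P05Rik intron probe read 1.01 and its Adamts9 neighbour −0.34 in 2094 L1.

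**Figure D4:**
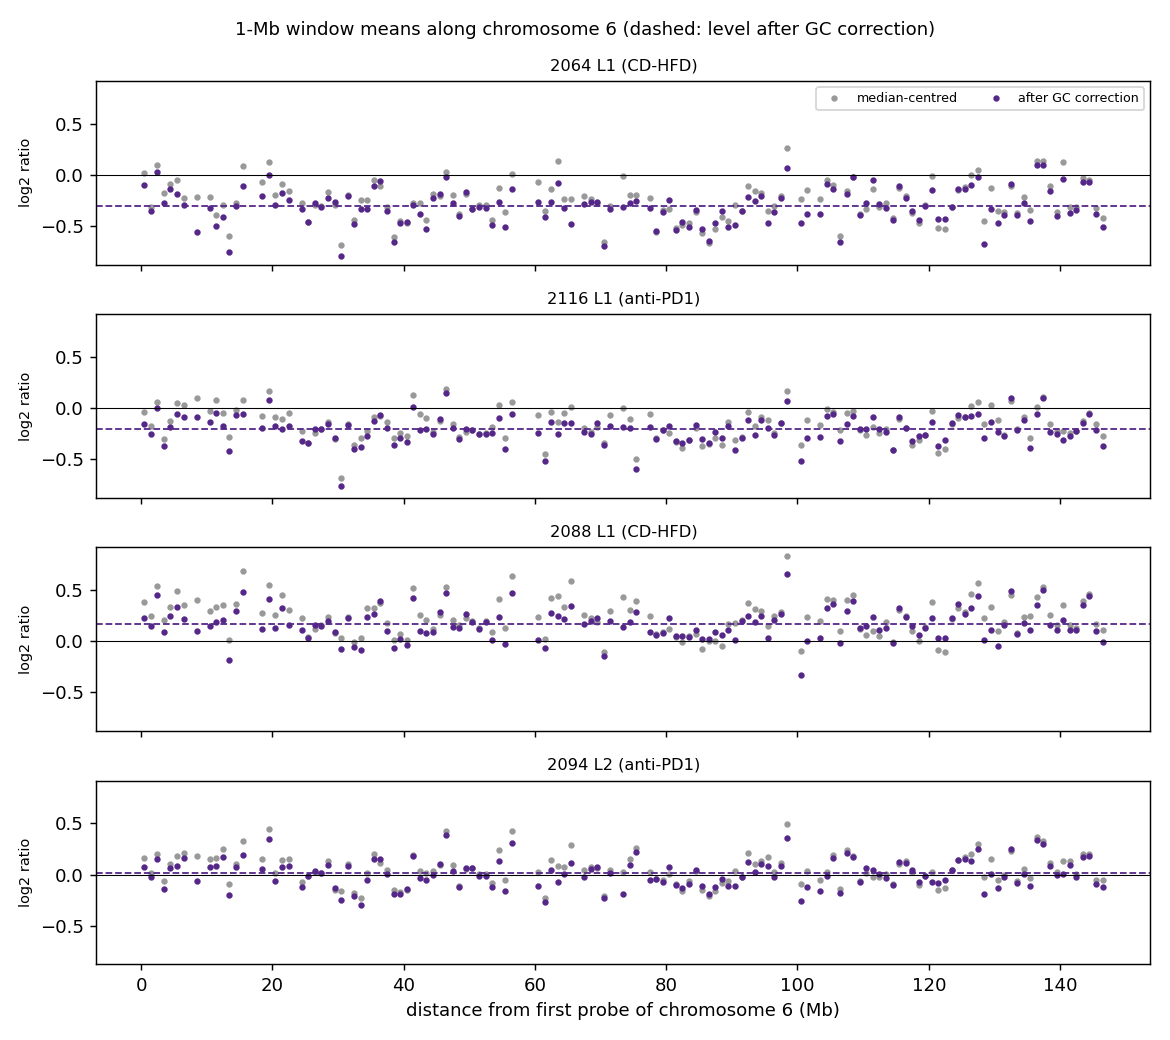
Means of 1-Mb windows along chromosome 6 (x axis, distance from the first probe in Mb; y axis, log2 ratio of tumour over reference) in 4 tumours, before (grey) and after (purple) GC correction, with the corrected level as a dashed line. The windows scatter around −0.31 in 2064 L1, −0.21 in 2116 L1, 0.17 in 2088 L1 and 0.01 in 2094 L2 along the full length.

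Segments with a mean of at least 0.2 were called gains and those of at most −0.2 losses. Without GC correction 10 tumours had a gained segment and 8 a lost one. All 10 tumours had the most proximal segment as their strongest gain, in 2088 L1 (0.37), 2064 L2 (0.35), 2094 L1 (0.30), 822 (0.30), 2094 L3 (0.29), 608 L3 (0.28), 2097 L2 (0.27), 1109 (0.26), 2115 L2 (0.23) and 612 L2 (0.21), and in each it ended between 26580187 and 28373392. Of these 10 tumours only 612 L2, with the weakest gain, was on slide 1, and the others were on the other design. The most proximal segments of 1770 L4 (0.199) and 604 L1 (0.197), also on slide 1, fell just short of the threshold. Whether the design or the tumours made this difference was not tested. A loss that ended between 29704757 and 29708916, directly after the most proximal segment, was called in 1770 L4, 2097 L2, 1109 and 822. Narrow losses included those in 2064 L2 at chr6:124363152-125592613 (70 probes, −0.52), in 1109 at chr6:47746523-48626205 (40 probes, −0.46) and in 1770 L4 at chr6:28743119-29708916 (38 probes, −0.33). After GC correction 0 tumours had a gained segment and 2 had a lost one, 2064 L1 and 2116 L1, over 100% of the chromosome.

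The wide losses were called with and without GC correction, but not under every setting. 2064 L1 was a single lost segment of 3003 probes at −0.27 and 2116 L1 was lost over chr6:27670423-127098364, 2164 probes at −0.22. 612 L5 and 608 L6 had no segment at −0.2, and with a threshold of 0.1 they joined the other 2 tumours in having over 50% of the chromosome called lost. With normexp or a threshold of 0.3, 0 tumours had over 50% called lost, and 2116 L1 was no longer among them with probes common to both designs, with the left-out stretch kept or with a doubled penalty. The gain of 2088 L1 covered 27.9% of its chromosome 6 probes at a threshold of 0.2.

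Gained and lost shares did not separate the groups. The mean share of chromosome 6 probes in gained segments, over mice, was 6.62% (SD 5.02, n = 7) with anti-PD1 and 9.49% (SD 10.4, n = 7) with CD-HFD. The lost share was 13.3% (SD 26.5, n = 7) with anti-PD1 and 7.63% (SD 19.2, n = 7) with CD-HFD. Both differences were smaller than the SD between mice, and the lost share difference changed sign when tumours were averaged without regard to the mouse, from 5.64 to −3.24 percentage points. It was −4.16 without mouse 2116 and 12.9 without mouse 2064, and over the other settings it ran from −7.32 with probes common to both designs to 23.1 with a threshold of 0.1.

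Gene loci were read as the mean of all probes within 500 kb of the probes named for the gene. Of 32 genes reported on, 31 had such a probe, and a locus held 32 to 88 probes over both designs. Each tumour was measured on 1 design, so its locus mean rested on fewer probes, as few as 15 at Mad2l1. Tumours on different designs were read mostly from different probes, so medians over all tumours mix 2 probe sets. Neighbouring loci share probes. After GC correction 31 of 31 loci were below 0 in each of 2064 L1, 2116 L1 and 612 L5, and 28 of 31 in 608 L6. In 2088 L1 it was 0 of 31, and in the other 16 tumours 3 to 25.

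**Figure D5:**
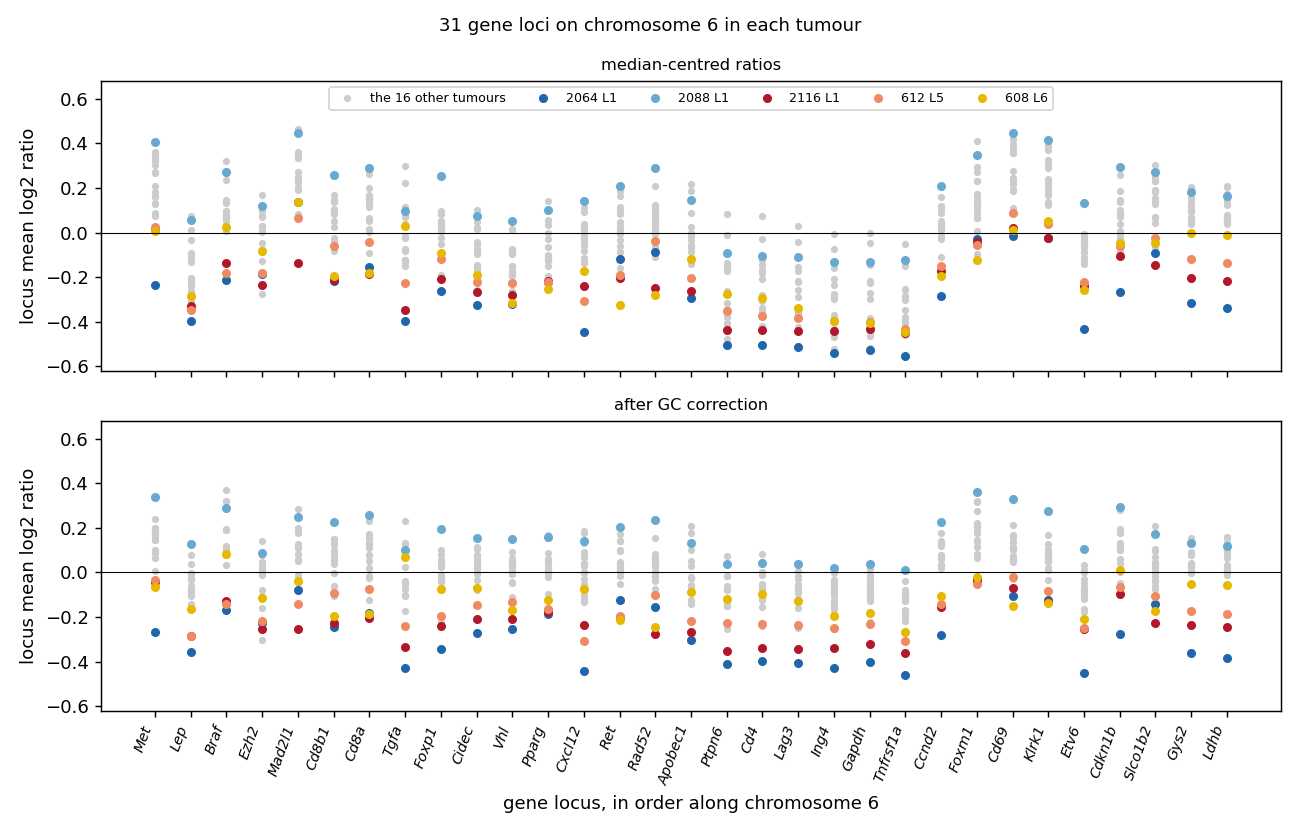
Locus mean log2 ratio (y axis) of 31 genes in their order along chromosome 6 (x axis) in each tumour, before (top) and after (bottom) GC correction, with 2064 L1, 2088 L1, 2116 L1, 612 L5 and 608 L6 in colour and the 16 other tumours in grey. The dip from Ptpn6 to Tnfrsf1a in the top panel, down to a median of −0.40 at Gapdh, is reduced to −0.10 at Gapdh in the bottom panel.

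Among the genes of growth factor signalling, Met, the receptor of hepatocyte growth factor, had the highest median, 0.18, and 0.14 after GC correction. Its locus values ran from 0.01 over a median of 0.17 to 0.34 in the anti-PD1 tumours and from −0.23 over 0.18 to 0.41 in the CD-HFD tumours, lowest in 2064 L1 and highest in 2088 L1. Braf, a kinase that relays growth signals, ran from −0.18 over 0.07 to 0.27 with anti-PD1 and from −0.21 over 0.13 to 0.32 with CD-HFD, with a median over all tumours of 0.08, and 0.10 after correction. None of these values separated the groups. Tgfa, a ligand of the EGF receptor, and the receptor kinase gene Ret had medians over all tumours of −0.07 and 0.01. After GC correction they were −0.04 and 0.02. Corrected Tgfa was positive in every tumour on slide 1, from 0.07 in 612 L2 to 0.23 in 1770 L1. On the other design it was positive only in 2064 L2 (0.03) and 2088 L1 (0.10), and lowest in 2064 L1 (−0.43). Uncorrected Met was at most 0.21 on slide 1, in 612 L2. On the other design it was higher except in 2064 L1, 2116 L1, 612 L5 and 2094 L2. Whether probes or tumours made these differences was not tested.

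Of the cell cycle and genome upkeep genes, Mad2l1, a part of the spindle checkpoint that holds division until chromosomes are attached, had the highest median of all 31 loci, 0.25, and 0.06 after GC correction. Foxm1, a transcription factor of dividing cells, had a median of 0.12, and 0.19 after correction. Ccnd2, which encodes a D-type cyclin, and Rad52, a DNA repair gene, both had a median of 0.02. Ezh2, the histone methyltransferase of the Polycomb complex, lay at 0.01, with its lowest value in 1109 (−0.27). Cdkn1b, which encodes the cell cycle inhibitor p27, was lowest in 2064 L1 (−0.27) and highest in 2088 L1 (0.30).

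Among suppressor and transcription factor genes, Vhl, which marks hypoxia-inducible factors for degradation, ranged from −0.32 in 2064 L1 to 0.05 in 2088 L1, with a median of −0.17, and 0.01 after GC correction. Etv6 and Foxp1, both transcription factor genes, were lowest in 2064 L1 (−0.43 and −0.26) and highest in 2088 L1 (0.13 and 0.25). Ing4, a chromatin reader gene, had a median of −0.38 before and −0.12 after correction.

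The metabolic loci lay in several stretches. Lep, the gene of the fat hormone leptin, had a median of −0.22, and −0.08 after GC correction. Pparg, the nuclear receptor of fat storage, and Cidec, a lipid droplet gene, had medians of −0.11 and −0.09, and 0.01 and 0.02 after correction. Slco1b2, a bile acid and drug uptake transporter of hepatocytes, Gys2, the liver glycogen synthase, and Ldhb had medians of 0.14, 0.10 and 0.06, and −0.01, 0.03 and 0.02 after correction. Apobec1, the editing enzyme of apolipoprotein B mRNA, was at −0.07 and −0.06.

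The immune genes are read here as DNA of the tumour sample and not as expression. Cd8a and Cd8b1, the chains of the CD8 co-receptor, had medians of 0.12 and 0.09, and 0.08 and 0.06 after GC correction. Cd4, the checkpoint gene Lag3, the phosphatase gene Ptpn6 and the TNF receptor gene Tnfrsf1a share a gene-dense interval with Ing4 and Gapdh, and had medians of −0.31, −0.35, −0.28 and −0.38 before and −0.08, −0.09, −0.08 and −0.13 after correction. Cd69 and the NK receptor gene Klrk1 had medians of 0.23 and 0.22, and 0.11 and 0.06 after correction. Cxcl12, a chemokine gene, was at −0.03 and −0.00.

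None of the gene loci was called between the groups. In the 22 windows that hold the 31 genes limma gave differences from −0.11 to −0.02, with a median of −0.05 beside −0.00 over all windows, and 0 of 31 passed an adjusted p of 0.05 (smallest adjusted p = 0.999). At an unadjusted p of 0.05 it was also 0, against 0.855% of all windows, and the smallest p in limma was 0.0576, for the window of Ezh2. These windows share the level of the chromosome and are not independent. Of all 134 chromosome 6 windows 112 had a negative difference, with a median of −0.04, against 50.2% of all windows in the genome.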

How the data were processed

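The authors deposited, for each of 21 arrays, the spot intensities written by the scanner software (Feature Extraction 11.0.1.1), with positions in mm9, and log2 ratios after loess normalization for 11526 probes. In the deposited scanner files the log10 ratio of a spot is Cy5 over Cy3, the reference over the tumour, and it matched the ratio of the processed intensities in at least 99.4% of the spots of every array. The processed signals were already background-subtracted and dye-normalized, and no loess or quantile step was added here. The lowest correlation between any pair of arrays was 0.36.

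Ratios were formed as log2 of tumour over reference signal, without control spots and outlier flags, averaged over spots of a probe and centred on the array median. Chromosomes, their distal minus proximal parts, windows of 1 Mb with at least 5 probes on every array, and probes common to both designs were fitted over the genome with lmFit, duplicateCorrelation (mouse as block) and eBayes in limma 3.58.1 under R 4.3.3. Tests were two-sided and p-values adjusted by Benjamini-Hochberg. Lesions of 1 mouse are not independent. Segments came from optimal partitioning (penalty 3 times the noise variance times ln n, at least 10 probes). The GC correction was a quadratic regression of each array on probe GC and on GC over 50 kb, both read from GRCm38. limma and the segmentation were tested on simulated data. Python 3.11.15, numpy 2.4.6 and pandas 2.3.3 were used.

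The chromosome, the gene list and the tests were chosen with earlier results of these data known. Named were all listed genes reported here, every tumour, the windows of chromosome 6 with the 3 smallest p in limma and with the 3 highest and 3 lowest medians, and the strongest segment and step of a tumour. The Klrk1 and Ing4 probes were chosen after their loci had been seen. Probes in untranslated exons are not printed. Some listed genes and the stretch left out of the chromosome are not reported here. Precision of the group comparisons is limited by the number of mice, 7 in each group, and by 1 array a tumour.

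The alternatives were the loess-normalized ratios, normexp (offset 50), only spots above background, probes common to both designs, the GC correction, subtraction of the median profile, the median of probes, the left-out stretch kept, centring outside chromosome 6, array weights, a slide block, tumours taken as independent, averages per mouse, 5-Mb and 0.5-Mb windows, thresholds of 0.1 and 0.3, a doubled penalty, and each mouse left out in turn. Centring of the loess-normalized columns was added after the data had been seen.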

Additional observations from a re-analysis of the deposited data

Results flagged for a closer look

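Within the groups of 7 mice or 9 tumours, 15 sets of chromosome 6 values were screened for a value far from its neighbours by Dixon's ratio of gap to range, and 8 were found. Chance flags about 1 in 20 groups where values are not selected, but the chromosome was chosen by these levels, so that rate does not apply and the values are a description, not a test. They go back to 3 animals, and several rest on the same measurement. Among the 9 CD-HFD tumours 2064 L1 stood apart with a level of −0.27, the others lying between 0.05 and 0.21, with a corrected level of −0.31, the others lying between 0.01 and 0.17, and with 100% of the chromosome in lost segments, against at most 2.33% in the others. Over CD-HFD mice this made mouse 2064 stand apart with a mean lost share of 51.2%, its 2 lesions holding 100 and 2.33%. Among the 7 anti-PD1 mice, mouse 2116 stood apart with a level of −0.18, the others lying between −0.02 and 0.06, with a corrected level of −0.21, the others between −0.06 and 0.03, and with a lost share of 72.1%, the others at or below 14.9%. The CD-HFD mouse 822 had the most negative distal minus proximal value of its group, −0.14, the other CD-HFD mice lying between −0.08 and −0.05. The anti-PD1 tumours 2094 L1 and 1109 were also at −0.14, and 822 was the only CD-HFD tumour on slide 3. GC content accounted for 25.1% of the variance of this tumour's autosomal probes, and after GC correction its distal and proximal parts were both at 0.01. Each of the 3 animals is represented here by 1 array a tumour, so none of these values has a repeat.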

How the results depend on the processing

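The group difference of the chromosome 6 level kept its sign and missed the threshold under all 13 alternatives (−0.06 with the mean of each mouse to −0.03 with the median of probes) and when single mice were left out (−0.08, without 2064, to −0.02, without 2088). The distal minus proximal difference behaved likewise (−0.02 to −0.00, and −0.02 to −0.01 with a mouse left out). The counts of chromosomes, windows, probes and gene loci called were 0 under each alternative that was run. The number of tumours at −0.1 or below was 4, and 3 with normexp or with probes common to both designs, where 608 L6 dropped out. With the loess-normalized ratios it was 4 with 2094 L1 in place of 608 L6. The gained share difference was −2.87 percentage points, and −14.3 with the loess-normalized ratios, −12.9 with probes common to both designs, −13.9 with a threshold of 0.1 and −14.0 with the penalty doubled, where 2088 L1 (with the threshold of 0.1 also 1109 and 822) was called gained over more than 50% of the chromosome. With a mouse left out it ran from −4.45 (without 1770) to 0.195 (without 2088), and the lost share difference from −4.16 (without 2116) to 12.9 (without 2064). The lost share difference, 5.64, ran over the alternatives from −7.32 (probes common to both designs) to 23.1 (threshold of 0.1), and was below 0 also with normexp, a doubled penalty and tumours taken as independent. Of the values of single tumours, loci and windows under the alternatives, 363 stayed within the spread of their main value or on their side of the threshold and 33 moved further, chiefly with the loess-normalized ratios or the GC correction. Some uncalled values crossed 0, as the Vhl median did, from −0.17 to 0.01 with GC correction. No paired analysis was possible because no mouse gave tumours to both groups. At a probe noise of 0.41 to 0.68, small changes can be missed. In simulated chromosomes of 3001 probes, a shift of −0.2 over 300 probes was recovered in 86, 56 and 4% of 50 runs at the lowest, median and highest noise. Over 100 probes it was 8, 0 and 0%. In simulated windows limma recovered 42% of group differences of 0.2 and 97% of those of 0.4, with 6 false calls. The simulated windows were drawn independently, with a correlation of 0.3 within a mouse. Real windows of a chromosome share the level of their tumour, so these rates do not give the power of the comparison made here.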
